A study of Homo sapiens with 12 samples.

Results

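The subunits of the lysosomal proton pump and the cathepsins were followed in K562 cells by RNA-seq. The members were the protein-coding genes of the count table whose symbols mark a V1 or V0 subunit of the vacuolar ATPase (ATP6V1 or ATP6V0), a cathepsin (CTS and a letter), an accessory protein of the pump (ATP6AP1, ATP6AP2) or a lysosome-associated membrane protein (LAMP1, LAMP2). The rule reads symbols and no measured values, though the set was picked as a topic with earlier results of these data known. It gave 43 of 58735 genes: 13 V1 subunits, 9 V0 subunits, 2 accessory proteins, 15 cathepsins, 2 membrane proteins, and 2 genes that only share a symbol with the pump (ATP6V1FNB, a neighbour of ATP6V1F, and the readthrough ATP6V1G2-DDX39B). Of these, 36 had enough reads to be tested, among 20821 genes tested in all.

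K562 is an established human line from a chronic myelogenous leukaemia that carries BCR-ABL1, the kinase that nilotinib inhibits, and hemin drives these cells towards the erythroid lineage. The 4 groups had 3 libraries each. Mock DMSO cells had vehicle and no hemin, mock nilotinib cells had 0.1 µM nilotinib and no hemin, hemin DMSO cells had vehicle and then 50 µM hemin for 24 h, and hemin nilotinib cells had 0.1 µM nilotinib and then 50 µM hemin for 24 h. The column names of the count table mark the mock libraries as 0 h and the hemin libraries as 24 h, so the action of hemin cannot be told apart from 24 h of further culture. Nilotinib or vehicle was given 24 h before hemin. By these times the hemin nilotinib cells were also taken later after nilotinib was given than the mock nilotinib cells. A difference between the nilotinib effects with and without hemin therefore cannot be told apart from time since nilotinib. All 12 libraries came from this 1 line and all cells had the vehicle.

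The vacuolar ATPase pumps protons into lysosomes, endosomes and secretory granules. Its V1 part sits in the cytosol and hydrolyses ATP, and its V0 part spans the membrane and carries the protons. The acid it makes is needed by the cathepsins, proteases that digest proteins in the lysosome and are grouped by the residue that does the cutting into cysteine, aspartic and serine enzymes. TFEB, TFE3 and MITF, related transcription factors that drive lysosomal genes, bind an E-box with the core CACGTG, and erythroid cells clear their organelles through lysosomes as they mature.

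The libraries held 33457078 to 50506990 counts, of which 0.276 to 0.338% fell on the members. All 10 K562 and erythroid markers (among them HBG1 and GATA1) were above the filter on low counts. Of the markers of other blood cells, 7 of 10 myeloid, 3 of 6 megakaryocyte and 4 of 6 lymphoid genes were above it, and no marker was at 0 in every library. Mitochondrial genes took 1.45 to 2.88% of counts in the 3 hemin DMSO libraries and 5.20 to 8.83% in the other 9. Libraries of a group correlated at 0.969 to 0.992 on log counts.

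A RefSeq promoter window, from 250 bases before to 50 bases after the start of the gene (GRCh38.p14), was at hand for 29 of the 43 members. Among them were 12 of the 18 V1 and V0 subunits tested and 9 of the 13 cathepsins tested. Members without a window were not searched. The letters CACGTG, which read the same on both strands, occurred in the windows of 8 of these 29 members (27.6%) and in 7.43% of 27305 windows in all. The longer TCACGTGA, which contains it, occurred in 4 of 29 (13.8%) and in 1.04% of all windows. The 8 holders were ATP6V0B, ATP6V0D1, ATP6V0E2, ATP6V1G1, CTSA, CTSD, CTSF and LAMP1. The stretch of 30 bases around the last match that lies wholly before the start is shown for each, so that the letters can be set beside the changes of the same genes. CACGTG is in capitals, and each stretch is written 5′ to 3′ on the strand of its gene.
ATP6V0D1 (chr16:67481199-67481228, minus strand): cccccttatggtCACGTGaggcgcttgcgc
ATP6V1G1 (chr9:114587699-114587728, plus strand): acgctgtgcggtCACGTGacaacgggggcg
LAMP1 (chr13:113297199-113297228, plus strand): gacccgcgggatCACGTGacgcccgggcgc
CTSA (chr20:45891298-45891327, plus strand): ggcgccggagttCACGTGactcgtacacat
ATP6V0B (chr1:43974909-43974938, plus strand): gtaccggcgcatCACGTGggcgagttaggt
ATP6V0E2 (chr7:149872884-149872913, plus strand): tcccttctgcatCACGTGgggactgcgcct
CTSD (chr11:1763957-1763986, minus strand): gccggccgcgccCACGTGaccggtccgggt
CTSF (chr11:66568640-66568669, minus strand): ccctgcgcgcccCACGTGcctcctgtaaac

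The matches shown began 59 bases before the RefSeq start in ATP6V0D1, 58 in ATP6V1G1, 28 in LAMP1, 25 in CTSA, 39 in ATP6V0B, 72 in ATP6V0E2, 47 in CTSD and 51 in CTSF. The gene positions of the count table differ from these starts. By those positions the stretches of ATP6V0B, ATP6V0D1, CTSA, CTSD and CTSF, and that of CTSE below, lie at least in part within the gene. In ATP6V0D1, ATP6V1G1, CTSA and LAMP1 the stretch holds the longer TCACGTGA. The LAMP1 window held 6 matches of CACGTG in all, those of ATP6V0B, CTSA and CTSF 2 each, and the other 4 windows 1 each. A match of letters is a description of the window and says nothing of which factor was bound in these cells. With hemin alone ATP6V0B, ATP6V0D1, ATP6V1G1, LAMP1, CTSA and CTSD rose, ATP6V0E2 fell, and CTSF did not pass the test, with values given below. Over all genes 25.7% were called higher and 27.8% lower in that comparison. The calls of CTSA, CTSD and ATP6V0E2 did not hold under every alternative. The part of CACGTG in these changes was not tested. Of the GATA-like letters TGATAA and AGATAA, sought on both strands, TGATAA occurred in 1 of the 29 windows, that of CTSE. This is 3.45% of the members' windows, below the 7.76% of all windows. The stretch is shown here because CTSE changed most of all members with nilotinib, with the reverse complement of TGATAA in capitals.
CTSE (chr1:206023894-206023923, minus strand): gactccagggccTTATCAttcggccctcag

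AGATAA occurred in the windows of ATP6V1E1, ATP6V1G3 and CTSH, 10.3% of the members' windows and 10.5% of all.

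Levels are given as FPKM, counts divided by the gene length in kilobases and by the library total, scaled for composition, and changes as log2 fold changes with their standard error (SE). The adjusted p is that of the quasi-likelihood test of edgeR over all 20821 genes, and "rose" and "fell" are kept for an adjusted p under 0.05. As this is bulk RNA, fewer cells of a type and less RNA per cell cannot be told apart. ATP6V1F, part of the rotating axle of the pump (chr7:128862826-128865844), had the highest mean level of all members. Its levels were 164, 163 and 174 FPKM in mock DMSO, 115, 147 and 153 in mock nilotinib, 227, 349.9 and 269 in hemin DMSO and 124, 137 and 135 in hemin nilotinib. The hemin DMSO libraries were the highest and shared no range with another group. Exons of KCP cover 23.7% of its exons on the opposite strand, with a mean of 0.275 FPKM in mock DMSO and 0.574 in hemin DMSO. After it by mean level came CTSL, CTSZ, CTSB, ATP6V0B and ATP6V1G1, all described below.

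Hemin without nilotinib raised most subunits of the pump. Of the 18 V1 and V0 subunits tested, 15 rose, ATP6V1E2 and ATP6V0E2 fell, and ATP6V0A2 did not pass. Over all genes tested 53.6% were called in this comparison, 25.7% higher and 27.8% lower. The median log2 fold change of the 18 subunits was 0.98, and that of all genes -0.05. The summed level of the 13 V1 genes was 314 ± 16.2 FPKM (SD, n = 3) in mock DMSO and 582 ± 70.5 in hemin DMSO, and that of the 9 V0 genes 109 ± 5.54 and 206 ± 10.3. The 3 hemin DMSO libraries were apart from the mock DMSO libraries and higher for 21 of the 36 members and lower for 7; over all genes they were apart for 62.7%, with 29.8% higher and 32.9% lower. Of the 15 rises, 12 held under every alternative that gave a value (other scalings, filters, tests, blocks and left-out libraries, a 2-fold minimum aside, here and in what follows), and those of ATP6V1A, ATP6V1B2 and ATP6V1D did not. ATP6V1G2, CTSE, CTSV and CTSW have no value under the filter of at least 10 counts in every library, which they did not pass. Scaling to library totals alone moved the median of all genes to -0.29 and left 13 members higher and 8 lower, in place of 20 and 5.

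**Figure D1:**
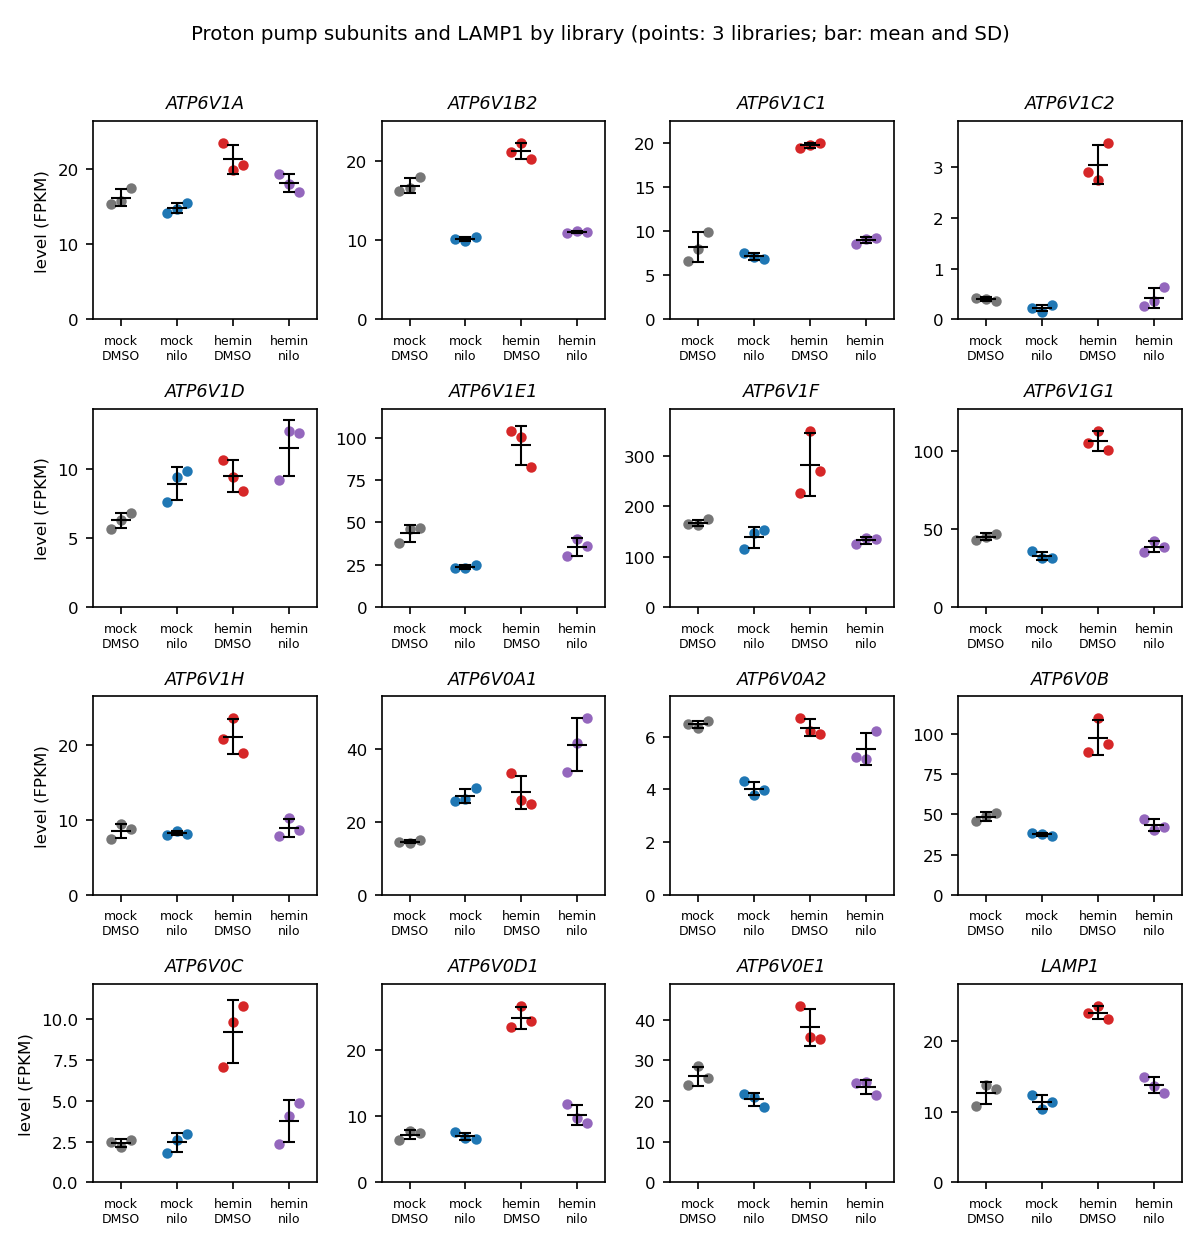
Levels of 15 pump subunits and LAMP1 (vertical axes, FPKM from 0) in the 4 groups (horizontal axes), with a point for each of the 3 libraries and a bar at the mean with its SD. In most panels the hemin DMSO libraries lie above the other 3 groups, while ATP6V0A1 and ATP6V1D are highest by mean in hemin nilotinib and ATP6V0A2 is lowest in mock nilotinib.

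ATP6V1C2, a tissue-restricted form of the C subunit that helps to hold V1 and V0 together, rose the most. Its levels were 0.429, 0.404 and 0.353 FPKM in mock DMSO and 2.91, 2.76 and 3.48 in hemin DMSO, with 0.233, 0.151 and 0.281 in mock nilotinib and 0.264, 0.370 and 0.644 in hemin nilotinib. The hemin DMSO libraries stood apart from all others. The log2 fold change by hemin alone was 2.95 ± 0.29 (7.70-fold, adjusted p = 1.09e-06). Its usual counterpart ATP6V1C1 rose by 1.27 ± 0.14 on the log2 scale, from 8.14 ± 1.69 FPKM (SD, n = 3) to 19.7 ± 0.314, and stayed the more abundant form: the ratio of ATP6V1C2 to ATP6V1C1 was 0.0356 to 0.0653 in mock DMSO and 0.140 to 0.174 in hemin DMSO. Exons of PDIA6 cover 29.9% of the ATP6V1C2 exons on the opposite strand, and whether the counting used strand is not given in the sources used here. PDIA6 had a mean of 62.8 FPKM in mock DMSO and 64.1 in hemin DMSO, with a log2 fold change of 0.03 ± 0.16.

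The membrane ring of the pump followed. ATP6V0C, which forms most of the proton-carrying ring (chr16:2513870-2520218), was at 2.50, 2.17 and 2.62 FPKM in mock DMSO, 7.10, 9.82 and 10.8 in hemin DMSO, 1.79, 2.59 and 2.94 in mock nilotinib and 2.36, 4.09 and 4.87 in hemin nilotinib. Every hemin DMSO library was above every other library. The change by hemin alone was 1.93 ± 0.26 (3.81-fold, adjusted p = 1.98e-05). Its level is uncertain, since 72.1% of its exons overlap AC093525.2 and AC093525.1 on the same strand and 52.4% of its 150-base words also occur there; those genes had means of 1.33 and 0.167 counts a library. ATP6V0B, the other ring protein, was at 45.9, 48.9 and 51.2 FPKM in mock DMSO, 89.1, 110.0 and 94.2 in hemin DMSO, 38.5, 37.8 and 36.7 in mock nilotinib and 47.3, 40.2 and 42.04 in hemin nilotinib. Its rise by hemin alone was 1.01 ± 0.12 (adjusted p = 5.57e-06), and its lowest group was mock nilotinib.

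ATP6V0D1, which couples the ring to the axle (chr16:67438014-67481237), had levels of 6.42, 7.77 and 7.43 FPKM in mock DMSO and 23.4, 26.6 and 24.3 in hemin DMSO. In mock nilotinib they were 7.52, 6.75 and 6.50 and in hemin nilotinib 11.8, 9.76 and 8.88. The ranges of both mock groups overlapped, hemin nilotinib lay above them, and hemin DMSO above all. The change by hemin alone was 1.78 ± 0.13 (3.44-fold, adjusted p = 4.63e-08).

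Among the V1 subunits, the peripheral stalks that hold the catalytic head still are made of E and G subunits. ATP6V1G1 was at 42.6, 45.05 and 46.99 FPKM in mock DMSO, 105, 113 and 100.4 in hemin DMSO, 35.7, 31.5 and 31.1 in mock nilotinib and 34.9, 41.9 and 38.6 in hemin nilotinib. ATP6V1E1 was at 37.5, 46.2 and 46.6 FPKM in mock DMSO, 104, 100.2 and 82.6 in hemin DMSO, 23.3, 22.8 and 25.1 in mock nilotinib and 29.9, 40.2 and 36.1 in hemin nilotinib. In both genes hemin DMSO was highest and mock nilotinib lowest by mean, with the ranges of mock DMSO and hemin DMSO far apart. Hemin alone raised ATP6V1G1 by 1.24 ± 0.12 (adjusted p = 4.67e-07) and ATP6V1E1 by 1.14 ± 0.14 (adjusted p = 7.38e-06). ATP6V1H, which regulates the coupling of V1 to V0, was at 7.43, 9.37 and 8.71 FPKM in mock DMSO, 20.8, 23.6 and 18.9 in hemin DMSO, 8.03, 8.56 and 8.07 in mock nilotinib and 7.89, 10.2 and 8.65 in hemin nilotinib. Outside hemin DMSO its 3 groups overlapped, and its rise was 1.31 ± 0.13 (adjusted p = 1.17e-06). ATP6V1F rose by 0.75 ± 0.15 (adjusted p = 6.48e-04) and the low-level ATP6V1G2, a form of the G subunit known from neurons, by 2.83 ± 0.46 (adjusted p = 8.56e-05), from 0.129 ± 0.0495 to 0.922 ± 0.251 FPKM (SD, n = 3).

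The catalytic head had smaller values. ATP6V1A, which binds and splits ATP, had a log2 fold change of 0.39 ± 0.12 by hemin alone and its partner ATP6V1B2 of 0.33 ± 0.11 (adjusted p = 0.00900 and 0.0154). Scaled to library totals alone these were 0.16 and 0.09 and did not pass. ATP6V1A also lost its call without mock DMSO replicate 1 or 2 (0.29 to 0.36), and ATP6V1B2 without mock DMSO replicate 1 or 2, mock nilotinib replicate 2 or 3 or hemin nilotinib replicate 2 (0.23 to 0.30). ATP6V1D, the other part of the axle, had 0.60 ± 0.16 (adjusted p = 0.00421), and 0.36 with an adjusted p of 0.0583 when scaled to library totals alone.

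The 2 subunits that fell with hemin alone were minor isoforms. ATP6V0E2, a form of the small membrane subunit e, was at 3.55, 4.09 and 4.63 FPKM in mock DMSO, 1.55, 3.03 and 1.89 in hemin DMSO, 3.48, 3.05 and 2.69 in mock nilotinib and 3.11, 1.72 and 1.24 in hemin nilotinib. The mock DMSO libraries lay above the hemin DMSO libraries, and its nilotinib groups overlapped. Other genes overlap 6.90% of its exons on the same strand and 13.0% on the opposite strand. Its change by hemin alone was -0.93 ± 0.28 (adjusted p = 0.0113), while the main isoform ATP6V0E1 rose by 0.55 ± 0.13 from 26.04 ± 2.34 to 38.1 ± 4.56 FPKM (SD, n = 3). ATP6V1E2, otherwise known as a testis form, had -0.65 ± 0.21, and the ratio of ATP6V1E1 to ATP6V1E2 was 16.6 to 26.4 in mock DMSO and 60.8 to 92.6 in hemin DMSO. Both falls lost their call without hemin DMSO replicate 1 or 3, ATP6V0E2 at -0.82 to -0.73 and ATP6V1E2 at -0.56 to -0.51.

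Markers of cell types moved in the same libraries. Of the 10 K562 and erythroid markers 3 rose and 5 fell with hemin alone. The marker counts here stand beside 53.6% of all genes called, 25.7% higher and 27.8% lower. KLF1, an erythroid transcription factor, was at 138 to 205 FPKM in mock DMSO and 13.8 to 16.3 in hemin DMSO (log2 fold change -3.57). The globin genes HBG1, HBG2 and HBZ were at 70.1 to 176, 17.2 to 23.8 and 56.1 to 156 FPKM in mock DMSO. In hemin DMSO they were at 174 to 232, 28.3 to 46.4 and 204 to 268. CD14 and CSF1R, monocyte markers, were at 0.143 to 0.392 and 0.0278 to 0.0560 FPKM in mock DMSO and 2.76 to 6.23 and 0.149 to 0.421 in hemin DMSO. The granule genes PRTN3 and AZU1 were at 2.94 to 3.81 and 6.78 to 7.52 FPKM in mock DMSO and 0.481 to 1.14 and 2.08 to 3.83 in hemin DMSO. Of the 7 myeloid markers tested, 2 rose and 4 fell with hemin alone, and the summed level of all 10 was 60.7 to 68.5 FPKM in mock DMSO and 46.4 to 61.2 in hemin DMSO. The part of these markers, and of the lower mitochondrial share in the hemin DMSO libraries, in the change of the pump was not tested.

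Given before hemin, nilotinib left the pump subunits lower than in hemin DMSO. Of the 18 subunits tested 12 fell, ATP6V0A1 rose, and 5 did not pass, where 64.2% of all genes were called, 31.8% lower and 32.4% higher. The median of the 18 was -1.11, and that of all genes 0.02. All 12 falls held under every alternative that gave a value (ATP6V1G2 has none under the filter of 10 counts in every library), and the largest among genes with at least 100 counts was that of ATP6V1C2, -2.83 ± 0.29 (7.09-fold lower, adjusted p = 7.85e-07); PDIA6, on the other strand, fell by 1.39 on the log2 scale here. The hemin nilotinib libraries were apart and higher for 5 of 36 members and lower for 22, beside 31.5% and 32.0% of all genes (63.5% either way). Over the 36 members 6 rose and 22 fell, and with scaling to library totals alone 9 rose and 19 fell, with the median of all genes then at 0.20. This comparison and that of hemin alone share the 3 hemin DMSO libraries, as others below share a group, so that their values are not independent.

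Of these 12 falls, 10 were larger than 2-fold. ATP6V1G2 and ATP6V1C1 had log2 fold changes of -1.93 ± 0.44 and -1.14 ± 0.14 (adjusted p = 0.00116 and 2.68e-06). ATP6V1G1 fell by 1.46 ± 0.12 (2.76-fold lower, adjusted p = 3.64e-08), and ATP6V1E1 fell by 1.43 ± 0.14 (adjusted p = 3.52e-07). ATP6V0C and ATP6V0D1 gave -1.29 ± 0.26 and -1.29 ± 0.13, ATP6V1H -1.24 ± 0.13, and ATP6V0B -1.18 ± 0.12. In each of ATP6V1G1, ATP6V1E1, ATP6V0C, ATP6V0D1, ATP6V1H and ATP6V0B no hemin nilotinib library reached the lowest hemin DMSO library. ATP6V1B2 fell by 0.94 ± 0.11, from 21.2 ± 1.003 to 11.03 ± 0.0906 FPKM (SD, n = 3), while its partner ATP6V1A did not pass (-0.23 ± 0.12, 95% interval -0.48 to 0.01). The ratio of ATP6V1B2 to ATP6V1A was 0.902 to 1.13 in hemin DMSO and 0.566 to 0.653 in hemin nilotinib. ATP6V1D, ATP6V1E2, ATP6V0A2 and ATP6V0E2 did not pass, with 95% intervals of -0.05 to 0.61, -0.25 to 0.63, -0.44 to 0.05 and -0.69 to 0.51.

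**Figure D2:**
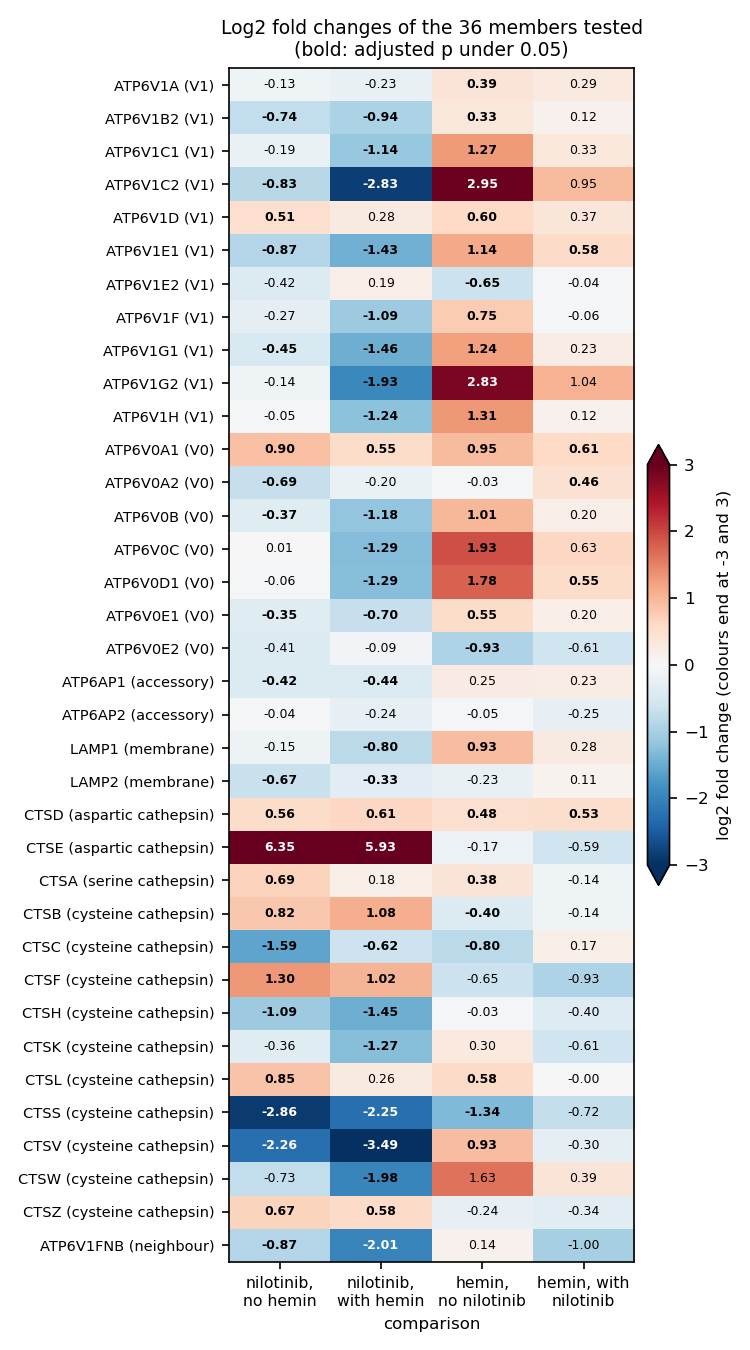
Log2 fold changes (colour and number) of the 36 members tested (rows, with the part or class of each) in the 4 pairwise comparisons (columns), bold where the adjusted p was under 0.05. Most pump subunits are red with hemin alone and blue for nilotinib with hemin, and the cathepsins are divided, from CTSE at 6.35 to CTSV at -3.49.

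Without hemin, nilotinib changed 9 of the 18 subunits. Of these 18, 7 fell, ATP6V0A1 and ATP6V1D rose and 9 did not pass, beside 42.5% of all genes called, 21.8% lower and 20.7% higher. The median of the 18 was -0.31, and that of all genes 0.004. The mock nilotinib libraries were apart from mock DMSO and higher for 9 of 36 members and lower for 17, beside 29.8% and 31.1% of all genes (61.0% either way). ATP6V1E1 (-0.87 ± 0.14, adjusted p = 1.25e-04), ATP6V1B2 (-0.74 ± 0.11, adjusted p = 4.04e-05), ATP6V0A2 (-0.69 ± 0.12, adjusted p = 1.75e-04) and ATP6V1G1 (-0.45 ± 0.12, adjusted p = 0.00522) fell. These 4 falls held under every alternative, and those of ATP6V0B, ATP6V0E1 and ATP6V1C2 did not: without any one of 4, 5 and 8 of the libraries they gave -0.40 to -0.35, -0.40 to -0.29 and -0.93 to -0.65 and lost their calls. The rise of ATP6V1D (0.51 ± 0.16) was lost without mock DMSO replicate 1 or mock nilotinib replicate 2 or 3 (0.40 to 0.44). ATP6V0C, ATP6V0D1 and ATP6V1H did not pass, at 0.01 ± 0.27, -0.06 ± 0.13 and -0.05 ± 0.14, with 95% intervals of -0.56 to 0.57, -0.34 to 0.22 and -0.33 to 0.24.

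The effect of nilotinib on the pump was compared between cells with and without hemin in the same model. It was more negative with hemin for 9 of the 18 subunits and more positive for ATP6V0A2, where 30.1% of all genes differed, 13.0% more negative and 17.1% more positive. The largest differences were those of ATP6V1C2 (-1.997 ± 0.44, adjusted p = 0.00321), ATP6V0C (-1.30 ± 0.37, adjusted p = 0.0159), ATP6V0D1 (-1.23 ± 0.19, adjusted p = 2.03e-04), ATP6V1H (-1.19 ± 0.19, adjusted p = 3.15e-04) and ATP6V1G1 (-1.01 ± 0.17, adjusted p = 3.82e-04). With ATP6V0B, ATP6V1C1 and ATP6V1F these made 8 differences that held under every alternative. That of ATP6V1E1 was lost without any one of 10 libraries (-0.60 to -0.39) and that of ATP6V0A2 without any one of 6 (0.44 to 0.52). Over the 36 members 2 differences were positive and 12 negative, and 4 and 9 with scaling to library totals alone, when the median of all genes was 0.27. The same contrast is also the difference between the hemin effects with and without nilotinib. It cannot tell hemin apart from the longer time since nilotinib in the hemin nilotinib libraries.

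**Figure D3:**
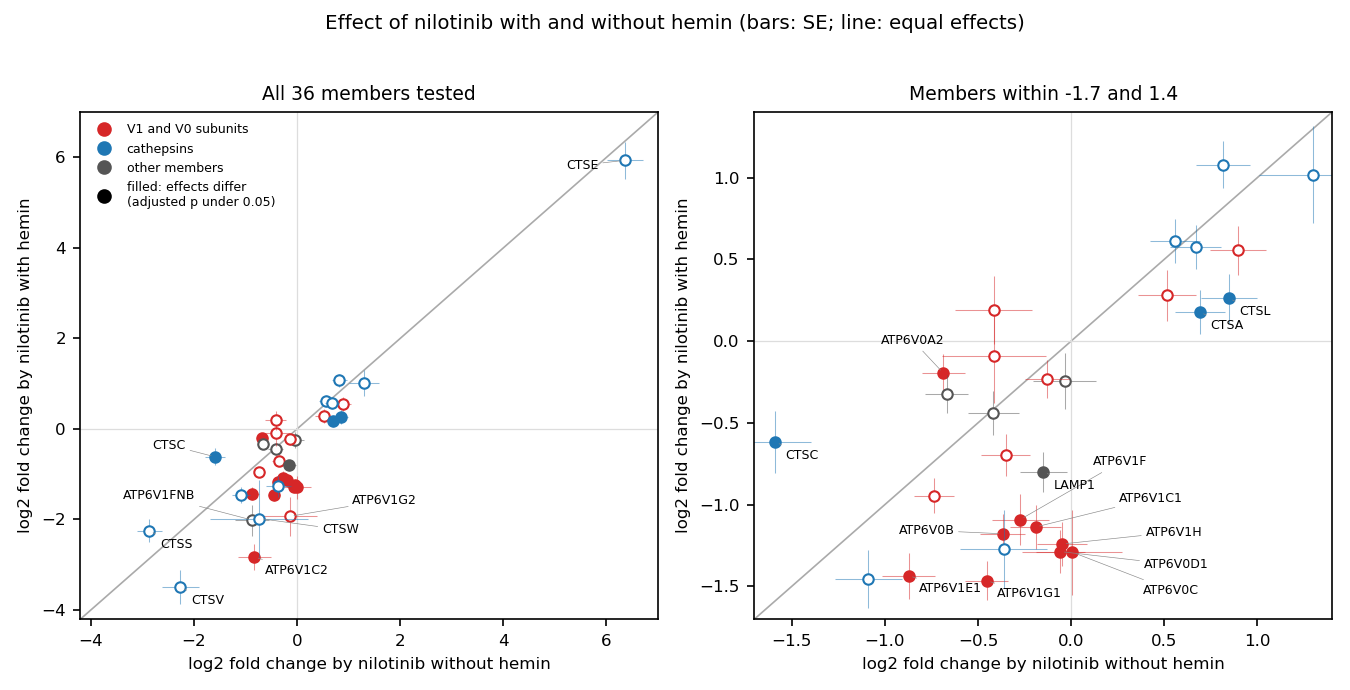
Log2 fold change by nilotinib without hemin (horizontal) and with hemin (vertical) for the 36 members tested (left) and, enlarged, those within the limits shown (right), with bars of 1 SE, the line of equal effects, and filled points where the effects differed. The filled pump subunits lie below the line, apart from ATP6V0A2, while CTSE, CTSB, CTSD and CTSZ are open points, whose effects did not pass a test of difference.

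In cells given nilotinib, hemin changed few members. ATP6V0A1, ATP6V0A2, ATP6V0D1, ATP6V1E1 and CTSD rose, 5 of 36, and none fell, where 5.80% of all genes were called, 3.52% higher and 2.28% lower. The libraries were apart and higher for 10 members and lower for 4, beside 11.7% and 11.6% of all genes (23.3% either way). At an unadjusted p under 0.05 there were 19 of 36 members, and 4488 of 20821 genes in all. The changes were 0.61 ± 0.15 for ATP6V0A1, 0.58 ± 0.14 for ATP6V1E1, 0.55 ± 0.13 for ATP6V0D1, 0.53 ± 0.14 for CTSD and 0.46 ± 0.12 for ATP6V0A2, with adjusted p of 0.0286, 0.0273, 0.0246, 0.0312 and 0.0304. None of the 5 calls held when libraries were left out in turn: each was lost without mock nilotinib replicate 2 or 3 or hemin nilotinib replicate 2, and, other than ATP6V0D1, also without hemin nilotinib replicate 3. Those of ATP6V0A1, ATP6V1E1 and CTSD were lost without mock nilotinib replicate 1 too, and that of ATP6V0A2 without mock DMSO replicate 2, with values from 0.36 for ATP6V0A2 to 0.64 for ATP6V0A1. Leaving out hemin nilotinib replicate 1 went the other way: ATP6V0C (0.88), ATP6V1C2 (1.19) and ATP6V1D (0.51) then rose as well. ATP6V0E2 (-1.06) and ATP6V1FNB (-1.27) then fell, and 2793 genes were called in all, so the few calls depend on that library. Replicates of the same number deviated together in mock nilotinib and hemin nilotinib. With the replicate number as a block 5 rose and CTSF (-0.93 without the block, -0.95 with it) and CTSS (-0.72 and -0.74) fell. DESeq2 called 6 higher and 2 lower. Over all genes 1208 were called in the main test, 1587 with the block and 1902 by DESeq2. The summed level of the V1 genes was 246 ± 20.1 FPKM (SD, n = 3) in mock nilotinib and 267 ± 18.6 in hemin nilotinib, and of the V0 genes 102 ± 1.17 and 129 ± 3.33. ATP6V1F had a mean of 138 and 132 FPKM in these groups. Without it the V1 sum was 108 ± 1.48 and 134 ± 11.6.

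ATP6V0A1, the a subunit through which protons leave the membrane ring (chr17:42458844-42522611), rose with hemin alone like most other subunits. It was the only subunit to rise in both nilotinib comparisons. Its levels were 14.3, 14.3 and 14.97 FPKM in mock DMSO, 25.7, 26.2 and 29.3 in mock nilotinib, 33.2, 26.1 and 24.8 in hemin DMSO and 33.7, 41.5 and 48.4 in hemin nilotinib. Mock DMSO was the lowest group and hemin nilotinib the highest. It rose with nilotinib without hemin (0.90 ± 0.15, adjusted p = 1.70e-04), with nilotinib and hemin (0.55 ± 0.15, adjusted p = 0.00426) and with hemin alone (0.95 ± 0.15, adjusted p = 7.47e-05). ATP6V1D also had its lowest mean in mock DMSO (6.28 FPKM) and its highest in hemin nilotinib (11.6 FPKM). The ATP6V0A1 isoform ATP6V0A2, found mainly in the Golgi, was at 6.48 ± 0.136 FPKM (SD, n = 3) in mock DMSO and 4.03 ± 0.258 in mock nilotinib, so that the ratio of ATP6V0A1 to ATP6V0A2 was 2.21 to 2.26 in mock DMSO, 5.97 to 7.35 in mock nilotinib, 4.05 to 4.96 in hemin DMSO and 6.44 to 8.04 in hemin nilotinib. TCIRG1, the a3 isoform of lysosomes and osteoclasts, whose symbol lies outside the choice of members, rose with nilotinib by 0.40 ± 0.12 without and 0.51 ± 0.12 with hemin.

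The cathepsins divided by gene. Of the 13 tested, nilotinib without hemin raised 7 (CTSA, CTSB, CTSD, CTSE, CTSF, CTSL, CTSZ) and lowered 4 (CTSC, CTSH, CTSS, CTSV), beside 42.5% of all genes called. All 11 calls held under every alternative that gave a value, and CTSE and CTSV have none under the filter of 10 counts in every library. With hemin nilotinib raised 5 and lowered 6, beside 64.2% of all genes called. The summed level of the 15 cathepsin genes was 218 ± 12.3 FPKM (SD, n = 3) in mock DMSO, 340.0 ± 42.3 in mock nilotinib, 219.8 ± 21.8 in hemin DMSO and 309 ± 21.2 in hemin nilotinib. In hemin DMSO against mock DMSO 4 of 13 rose and 3 fell, a share like the 53.6% of all genes called.

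**Figure D4:**
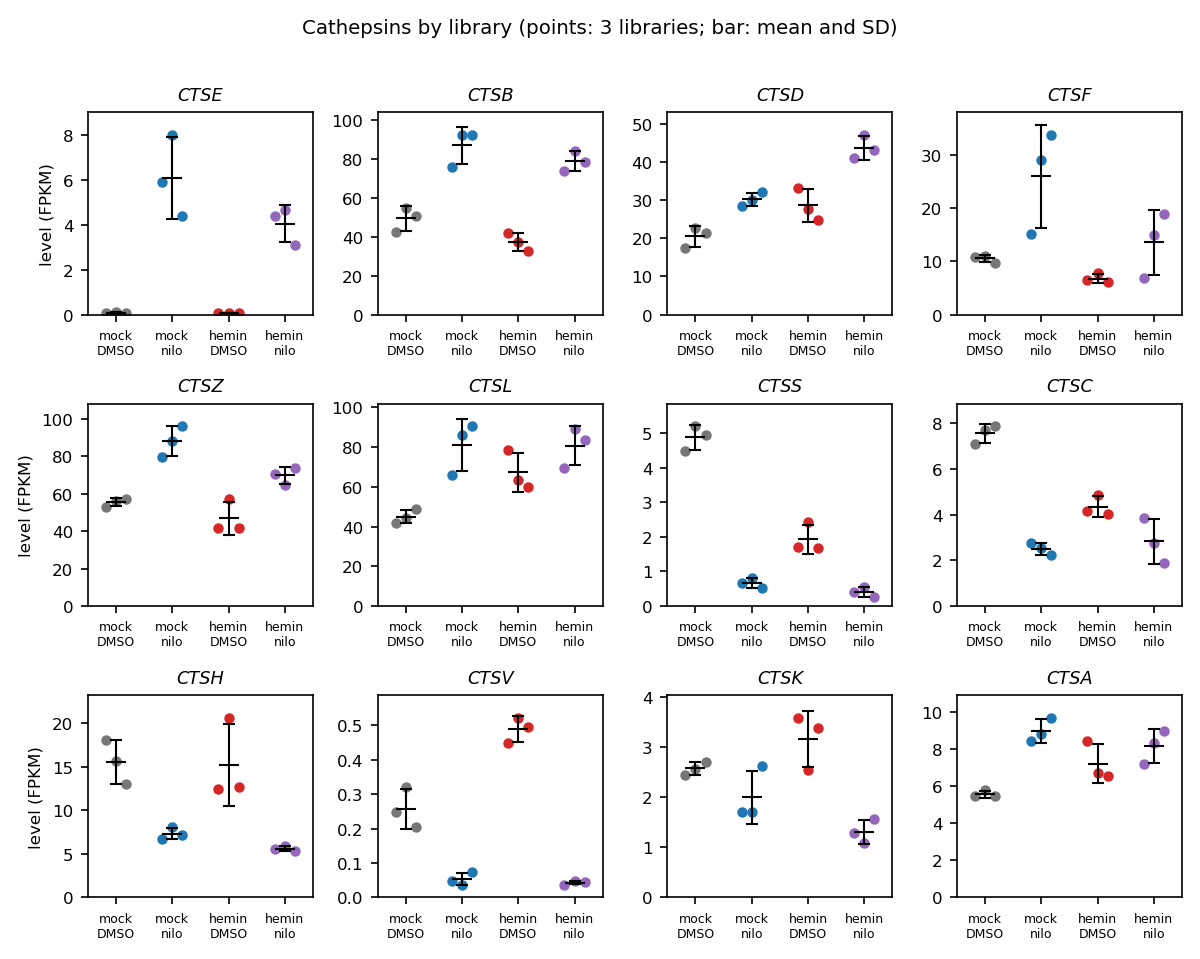
Levels of 12 cathepsins (vertical axes, FPKM from 0) in the 4 groups (horizontal axes), with a point for each of the 3 libraries and a bar at the mean with its SD. CTSE is near 0 in both DMSO groups and reaches 3.11 to 8.03 FPKM in the nilotinib groups, while CTSS, CTSH and CTSV are lower in both nilotinib groups.

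Both aspartic cathepsins rose with nilotinib. CTSE, a protease of endosomes that is also known from the membrane of red cells (chr1:206009264-206023909), was at 0.0539, 0.116 and 0.0576 FPKM in mock DMSO and 0.0574, 0.0717 and 0.0665 in hemin DMSO. In mock nilotinib it was at 5.90, 8.03 and 4.39 and in hemin nilotinib at 4.41, 4.66 and 3.11. No DMSO library came near a nilotinib library; the DMSO libraries had 5 to 13 counts and the nilotinib libraries 355 to 735. CTSE thus passed the filter on low counts through the nilotinib groups, where it is high, and its fold rests on few counts in the DMSO groups. The change was 6.35 ± 0.35 without hemin (81.7-fold, adjusted p = 1.13e-09) and 5.93 ± 0.40 with it (61.1-fold, adjusted p = 1.26e-09), and the difference between these was -0.42 ± 0.53 and did not pass (95% interval -1.54 to 0.71). The erythroid markers moved with it: all 10 rose with nilotinib in the presence of hemin and 9 of 10 without, and their summed level was 619 to 1025 FPKM in mock DMSO, 5798 to 7237 in mock nilotinib, 663 to 801 in hemin DMSO and 6536 to 14050.2 in hemin nilotinib. Most of the sum in the nilotinib groups was HBZ, at 3301 to 4334 FPKM in mock nilotinib and 4258 to 11431 in hemin nilotinib. Over all genes 32.4% were called higher with nilotinib and hemin and 20.7% with nilotinib alone. The part of erythroid cell state in the rise of CTSE was not tested.

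CTSD, the main aspartic protease of lysosomes, rose in every pairwise comparison, by 0.56 ± 0.14 with nilotinib alone, 0.61 ± 0.14 with nilotinib and hemin, 0.48 ± 0.14 with hemin alone and 0.53 ± 0.14 with hemin after nilotinib. Its mean was 20.5 ± 2.68 FPKM (SD, n = 3) in mock DMSO, 30.2 ± 1.77 in mock nilotinib, 28.6 ± 4.29 in hemin DMSO and 43.8 ± 3.15 in hemin nilotinib. The rise with hemin after nilotinib was lost without any one of 5 libraries (0.45 to 0.55), as given above. The rise with hemin alone was 0.31 and lost its call without mock DMSO replicate 1, and it was 0.24 with scaling to library totals alone. AC068580.4 overlaps 41.7% of the CTSD exons on the same strand and shares 28.95% of its 150-base words; it had a mean of 10.2 counts a library, so reads could be divided between them. The ratio of CTSD to CTSE was 195 to 374 in mock DMSO and 3.75 to 7.29 in mock nilotinib.

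Among the cysteine cathepsins, CTSB and CTSZ rose with nilotinib with and without hemin. CTSB, an endopeptidase that also trims peptides from their end, was at 42.6, 54.98 and 50.9 FPKM in mock DMSO, 76.3, 92.4 and 92.6 in mock nilotinib, 42.2, 37.6 and 32.6 in hemin DMSO and 74.2, 84.4 and 78.6 in hemin nilotinib. Both nilotinib groups lay above both DMSO groups. Its change was 0.82 ± 0.15 without hemin (adjusted p = 2.95e-04) and 1.08 ± 0.15 with it (adjusted p = 9.36e-06), and hemin alone gave -0.40 ± 0.15, a fall that was lost without mock DMSO replicate 2 or 3 or hemin DMSO replicate 3 (-0.43 to -0.30). CTSZ, a carboxypeptidase, was at 52.8, 56.3 and 56.97 FPKM in mock DMSO, 79.9, 88.1 and 96.1 in mock nilotinib, 41.7, 56.9 and 41.9 in hemin DMSO and 70.8, 64.8 and 73.7 in hemin nilotinib. It rose by 0.67 ± 0.14 (adjusted p = 8.74e-04) and 0.58 ± 0.14 (adjusted p = 0.00159) with nilotinib, and it did not pass with hemin, at -0.24 ± 0.14 alone and -0.34 ± 0.14 after nilotinib (adjusted p = 0.146 and 0.160).

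CTSL, a broad endopeptidase, was at 41.8, 44.5 and 48.6 FPKM in mock DMSO, 65.9, 86.1 and 90.5 in mock nilotinib, 78.5, 63.5 and 60.04 in hemin DMSO and 69.6, 88.9 and 83.8 in hemin nilotinib. Mock DMSO was the lowest group and the other 3 overlapped. It rose by 0.85 ± 0.15 with nilotinib alone (adjusted p = 2.94e-04) and by 0.58 ± 0.15 with hemin alone (adjusted p = 0.00403), while nilotinib with hemin gave 0.26 ± 0.15 (95% interval -0.06 to 0.58). The rise with hemin alone was 0.34 with an adjusted p of 0.0555 when scaled to library totals alone. CTSF was at 10.9, 11.04 and 9.75 FPKM in mock DMSO, 15.2, 29.02 and 33.9 in mock nilotinib, 6.43, 7.73 and 6.03 in hemin DMSO and 6.87, 15.01 and 18.9 in hemin nilotinib. Replicate 1 was the lowest in both nilotinib groups, and hemin nilotinib overlapped hemin DMSO. It rose by 1.30 ± 0.29 without hemin (adjusted p = 0.00215) and 1.02 ± 0.30 with it (adjusted p = 0.00721), the latter with an adjusted p of 0.0523 by limma on log2(FPKM + 1). With hemin alone it did not pass (-0.65 ± 0.30, adjusted p = 0.0757).

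CTSS, CTSH and CTSC fell with nilotinib. CTSS, which processes the invariant chain in antigen-presenting cells (chr1:150730196-150765957), was at 4.50, 5.21 and 4.95 FPKM in mock DMSO, 0.678, 0.807 and 0.525 in mock nilotinib, 1.71, 2.42 and 1.68 in hemin DMSO and 0.394, 0.558 and 0.271 in hemin nilotinib. Mock DMSO lay above hemin DMSO, and hemin DMSO above both nilotinib groups, which overlapped. The change was -2.86 ± 0.24 with nilotinib alone (adjusted p = 2.16e-07), -2.25 ± 0.25 with nilotinib and hemin (adjusted p = 1.43e-06) and -1.34 ± 0.23 with hemin alone (adjusted p = 1.88e-04). CTSH, an aminopeptidase, was at 18.1, 15.6 and 12.98 FPKM in mock DMSO, 6.75, 8.02 and 7.17 in mock nilotinib, 12.4, 20.6 and 12.7 in hemin DMSO and 5.53, 5.86 and 5.28 in hemin nilotinib. The DMSO groups overlapped each other and lay above both nilotinib groups. It fell by 1.09 ± 0.18 without hemin (adjusted p = 1.43e-04), had -1.45 ± 0.18 with it (adjusted p = 3.91e-06), also a fall, and with hemin alone gave -0.03 ± 0.18 (95% interval -0.41 to 0.34).

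CTSC, the dipeptidyl peptidase that activates the serine proteases of granules, was at 7.08, 7.70 and 7.87 FPKM in mock DMSO, 2.76, 2.54 and 2.23 in mock nilotinib, 4.14, 4.87 and 4.01 in hemin DMSO and 3.85, 2.76 and 1.89 in hemin nilotinib. Mock DMSO was the highest group, and hemin nilotinib spread over the range of mock nilotinib and up to just below hemin DMSO. It fell by 1.59 ± 0.19 with nilotinib alone (adjusted p = 7.18e-06), and it fell by 0.80 ± 0.19 with hemin alone (adjusted p = 0.00219). With nilotinib and hemin it gave -0.62 ± 0.19 (adjusted p = 0.0100), and -0.38 with an adjusted p of 0.0517 without hemin nilotinib replicate 3. The effect of nilotinib was less negative with hemin by 0.97 ± 0.27 (adjusted p = 0.0130), which held under every alternative.

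The remaining cysteine cathepsins were low. CTSV, a relative of CTSL known from thymus and testis, was at 0.258 ± 0.0581 FPKM (SD, n = 3) in mock DMSO, 0.0531 ± 0.0186 in mock nilotinib, 0.490 ± 0.0369 in hemin DMSO and 0.0427 ± 0.00531 in hemin nilotinib, from 6 to 92 counts a library. It fell with nilotinib, with log2 fold changes of -2.26 ± 0.36 without and -3.49 ± 0.37 with hemin (adjusted p = 8.22e-05 and 4.88e-07). Its rise with hemin alone (0.93 ± 0.30) was lost without mock DMSO replicate 1 or 3 (0.74 to 0.84). CTSK, the collagenase of osteoclasts, fell with nilotinib and hemin (-1.27 ± 0.24, adjusted p = 2.41e-04), from 3.17 ± 0.556 to 1.31 ± 0.236 FPKM, and without hemin gave -0.36 ± 0.23 (95% interval -0.86 to 0.13). CTSW, a protease of cytotoxic lymphocytes, had 0 to 27 counts, and its fall with nilotinib and hemin (-1.98 ± 0.84, adjusted p = 0.0433) was lost without any one of 7 libraries (-1.97 to -1.53). The serine cathepsin CTSA, which protects other lysosomal enzymes, rose by 0.69 ± 0.13 with nilotinib alone (adjusted p = 5.52e-04), from 5.57 ± 0.183 to 8.995 ± 0.654 FPKM, and gave 0.18 ± 0.13 with nilotinib and hemin (95% interval -0.10 to 0.46). Its rise with hemin alone (0.38 ± 0.13, adjusted p = 0.0253) was lost without any one of 7 libraries (0.26 to 0.39). PLTP and NEURL2 overlap 28.5% of its exons on the other strand; PLTP fell by 2.61 with nilotinib alone and NEURL2, at under 1 FPKM in each group's mean, rose by 1.11, on the log2 scale.

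Myeloid and lymphoid markers moved in the same libraries. Of the 7 of 10 myeloid markers tested, none rose and 3 fell with nilotinib alone, beside 42.5% of all genes called, 21.8% lower. With nilotinib and hemin none rose and 5 fell, beside 64.2% of all genes called, 31.8% lower. The summed level of all 10 was 60.7 to 68.5 FPKM in mock DMSO, 17.8 to 22.8 in mock nilotinib, 46.4 to 61.2 in hemin DMSO and 6.76 to 17.4 in hemin nilotinib. SPI1, the transcription factor of the myeloid lineage, was at 35.2 to 38.03 FPKM in mock DMSO and 6.83 to 8.34 in mock nilotinib. LYZ was at 14.1 to 21.1 and 1.48 to 2.40 FPKM in these groups, and AZU1 at 6.78 to 7.52 and 6.90 to 12.3. Of the 4 of 6 lymphoid markers tested, 2 rose with hemin alone and 2 fell in each nilotinib comparison, and their summed level was 5.47 to 13.7 FPKM in mock DMSO, 1.605 to 1.71 in mock nilotinib, 12.1 to 20.2 in hemin DMSO and 1.09 to 4.25 in hemin nilotinib. Over all genes 53.6% were called with hemin alone, 42.5% with nilotinib alone and 64.2% with nilotinib and hemin. Counted either way, the lymphoid calls, and the 5 myeloid calls with nilotinib and hemin, are near these shares. By direction, 25.7% of all genes were called higher with hemin alone. With nilotinib 21.8% were called lower without and 31.8% with hemin. The part of either list in the changes of CTSS, CTSC, CTSH and CTSW was not tested. CTSG, a serine protease of neutrophil granules, had 0 counts in all 12 libraries, which allows up to 3 counts a library, 0.0540 to 0.0957 CPM on scaled totals.

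The membrane proteins and the accessory proteins went apart. LAMP1, a main glycoprotein of the lysosomal membrane (chr13:113297241-113323672), was at 12.6 ± 1.56 FPKM (SD, n = 3) in mock DMSO, 11.4 ± 0.994 in mock nilotinib, 24.02 ± 0.946 in hemin DMSO and 13.8 ± 1.12 in hemin nilotinib. It rose with hemin alone by 0.93 ± 0.12 (adjusted p = 1.49e-05) and fell with nilotinib and hemin (-0.80 ± 0.12, adjusted p = 3.83e-05), with a difference between the nilotinib effects of -0.65 ± 0.18 (adjusted p = 0.0112) that was -0.48 and lost its call without mock DMSO replicate 1. LAMP2, which also serves chaperone-mediated autophagy, fell with nilotinib alone (-0.67 ± 0.12, adjusted p = 2.28e-04) and gave -0.23 ± 0.12 with hemin alone (95% interval -0.47 to 0.02). Its fall with nilotinib and hemin, -0.33 ± 0.12, was lost without hemin nilotinib replicate 1 or 3 (-0.29 to -0.26) and was -0.15 when scaled to library totals alone. ATP6AP1, which helps to assemble the pump, fell with nilotinib, at -0.42 ± 0.14 without and -0.44 ± 0.14 with hemin; the fall without hemin was lost without mock DMSO replicate 2 or mock nilotinib replicate 1 (-0.39 to -0.37), and that with hemin lost its call when scaled to library totals alone (-0.25) and with the 6 libraries alone (-0.42). ATP6AP2, also called the prorenin receptor, passed no test, with a 95% interval of -0.40 to 0.31 for hemin alone and -0.60 to 0.11 for nilotinib with hemin.

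The neighbour ATP6V1FNB, which has no known role in the pump, was at 2.23, 2.95 and 3.23 FPKM in mock DMSO, 1.26, 1.28 and 2.05 in mock nilotinib, 1.47, 3.52 and 4.23 in hemin DMSO and 1.02, 0.485 and 0.779 in hemin nilotinib. Hemin nilotinib lay below every other group. It fell by 2.01 ± 0.34 with nilotinib and hemin (adjusted p = 1.14e-04), and its fall with nilotinib alone (-0.87 ± 0.33) was lost without any one of 5 libraries (-0.86 to -0.75). The 7 members not tested had at most 16 counts in any library: CTSO, ATP6V0D2, ATP6V1G3, ATP6V1B1, ATP6V0A4, the readthrough ATP6V1G2-DDX39B and CTSG. Among them are the kidney and bone forms of the pump subunits, ATP6V1B1, ATP6V0A4, ATP6V1G3 and ATP6V0D2, whose levels were at most 0.0730 FPKM in any library.

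Other lysosomal genes were counted in lists, to be read against the shares of all genes called: 53.6% with hemin alone, 42.5% with nilotinib alone and 64.2% with nilotinib and hemin. Of 11 further genes of the pump and its assembly, none rose and 3 fell with hemin alone, and with nilotinib and hemin 5 rose and 2 fell, led by CCDC115 (-2.11), an assembly factor, and DMXL1 (1.41). Of 26 lysosomal hydrolases 6 rose and 8 fell with hemin alone, 12 rose and 4 fell with nilotinib alone, and 10 rose and 7 fell with nilotinib and hemin; the shares called with hemin, alone or with nilotinib, were near those of all genes. IDUA and LGMN, the latter a protease that processes cathepsins, rose the most in the last of these, by 2.36 and 1.97. Of 13 lysosomal membrane and transport genes 5 rose and 5 fell with hemin alone, and 2 rose and 8 fell with nilotinib and hemin. LAPTM4A, a small lysosomal membrane protein, was at 31.1, 32.9 and 32.7 FPKM in mock DMSO, 25.9, 26.9 and 24.4 in mock nilotinib, 104, 113 and 90.3 in hemin DMSO and 30.7, 39.02 and 33.7 in hemin nilotinib, with 1.67 ± 0.12 by hemin alone and -1.57 ± 0.12 by nilotinib with hemin.

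Of 6 genes that sort lysosomal enzymes, 2 rose and 2 fell with hemin alone, and 2 rose and 2 fell with nilotinib and hemin. SORT1, a sorting receptor, fell with nilotinib, at -1.63 ± 0.11 without and -1.13 ± 0.11 with hemin. Of 4 cathepsin inhibitors tested, 2 rose and 1 fell with nilotinib alone, and 1 rose and 1 fell with nilotinib and hemin. CSTA, a cytosolic inhibitor of cysteine cathepsins, fell in both, from 1.33 to 1.76 FPKM in mock DMSO to 0.0210 to 0.0369 in mock nilotinib.

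The factors that bind CACGTG were measured as well. TFE3 was at 15.00, 14.4 and 15.7 FPKM in mock DMSO, 12.02, 12.7 and 13.1 in mock nilotinib, 23.5, 24.1 and 23.3 in hemin DMSO and 10.2, 12.3 and 13.5 in hemin nilotinib. Hemin DMSO was the highest group, with a rise by hemin alone of 0.65 ± 0.12 (adjusted p = 2.74e-04) and a fall by nilotinib with hemin of -0.97 ± 0.12 (adjusted p = 3.62e-06). TFEB had 0.45 ± 0.20 with hemin alone, which did not pass (adjusted p = 0.0726), and fell with nilotinib, at -0.66 ± 0.21 without and -1.20 ± 0.21 with hemin. MITF fell in both nilotinib comparisons and with hemin alone (-1.30 ± 0.15, -0.54 ± 0.15 and -0.61 ± 0.15). TFEC had too few reads to be tested. Their mRNA levels say nothing of where these proteins were in the cell.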

How the data were processed

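RNA was sequenced by the authors' service as 150-base paired reads from K562 cells, with 3 biological replicates in each of 4 groups. The authors deposited raw read counts per gene, not normalized, and these were the input of the main test. FPKM values of each library, deposited by the authors as well, served only in alternatives, on log2(FPKM + 1) and log2(FPKM + 0.1); a table of their means per condition was not used here. Per the submitters' processing notes the build was GRCh38.p12 and DESeq2 was among the tools; the aligner, the counting program and the use of strand are not given in the sources used here. All 58735 gene identifiers and positions matched GENCODE 29.

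Counts were filtered by filterByExpr (minimum count 10, minimum total 15), scaled by TMM and fitted with edgeR 4.0.16 in R 4.3.3 by quasi-likelihood, with 1 mean per group over 12 libraries. Tests were two-sided, with Benjamini-Hochberg adjustment over all 20821 genes. For 3 against 3 libraries an exact permutation test cannot go below 0.1, so it was not used. Levels in the text are FPKM recomputed from the counts, the deposited gene length and the TMM-scaled totals. Scripts were tested on simulated data.

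Values in every library were given for the 6 members with the highest mean level, for up to 3 members that rose most and 3 that fell most in each pairwise comparison, and for the 5 with the largest difference between the nilotinib effects, the called ones with a mean of at least 100 counts. The members, lists, tests and alternatives were chosen with earlier results of these data known. Alternatives were DESeq2 1.42.0, limma 3.58.1, other scalings and filters, a replicate block, 6 libraries alone and each library left out. Promoter windows came from RefSeq (GRCh38.p14) and overlaps from GENCODE 29. Same-numbered replicates of mock nilotinib and hemin nilotinib deviated together (r = 0.199, 0.254 and 0.263 over genes), a pairing taken from the data and not from the labels.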

Additional observations from a re-analysis of the deposited data

Results flagged for a closer look

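The effect of nilotinib differed between cells with and without hemin for 14 of 36 members tested, where 30.1% of all genes differed. This was read from the interaction term of the model (edgeR quasi-likelihood test, adjusted p under 0.05 over all genes). Cells with hemin were also taken later after nilotinib was given, and the 2 cannot be told apart. The differences, in log2 units, were -1.997 for ATP6V1C2, -1.30 for ATP6V0C, -1.23 for ATP6V0D1, -1.19 for ATP6V1H, -1.01 for ATP6V1G1, -0.95 for ATP6V1C1, -0.82 for ATP6V1F and -0.81 for ATP6V0B. CTSC had the opposite sign, at 0.97. These 9 held under every alternative run, a 2-fold minimum aside. The difference of LAMP1, -0.65, was -0.48 and lost its call without mock DMSO replicate 1. Those of ATP6V1E1 (-0.56), CTSA (-0.51), CTSL (-0.58) and ATP6V0A2 (0.49) were lost without any one of 10, 9, 9 and 6 of the 12 libraries, where they ran -0.60 to -0.39, -0.54 to -0.40, -0.63 to -0.46 and 0.44 to 0.52.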

How the results depend on the processing

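No called change of a single member reversed under any alternative, a 2-fold minimum aside: of 1978 values for 95 changes, 1804 kept their call and 174 lost it. A minimum of 2-fold left, for higher and lower, 3 of 6 with nilotinib and hemin (higher), 2 of 9 and 4 of 14 with nilotinib alone, 9 of 20 and 1 of 5 with hemin alone, 0 of 5 with hemin after nilotinib (higher), and 0 of 2 and 5 of 12 for the difference between the nilotinib effects. Over all genes this minimum left 8936 of 13359 with nilotinib and hemin and 4872 of 8851 with nilotinib alone. It left 6474 of 11156 with hemin alone, 565 of 1208 with hemin after nilotinib and 4073 of 6271 differences. Scaling to library totals alone gave 13 higher and 8 lower with hemin alone and 4 positive differences. RLE scaling, a filter of at least 1 count, and limma on log2(FPKM + 0.1) each gave 1 positive difference, in place of 2. With hemin after nilotinib the counts depended most on the processing. There limma called 1 (log2(FPKM + 1)) and 2 (log2(FPKM + 0.1)) higher, and the 6 libraries alone 0 higher. DESeq2 called 2 lower, and the filter of at least 1 count 3 lower. Calls over all genes moved as well, from 1208 in the main test to 741 and 694 by limma. They were 183 with the 6 libraries alone, 1902 by DESeq2 and 1987 with that filter. The shifts are thus not particular to the members, and the cause was not tested.

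Leaving out each library in turn gave 0 to 8 higher and 0 to 2 lower with hemin after nilotinib, 2 to 6 lower with hemin alone, 9 to 14 lower with nilotinib alone, 1 to 3 positive and 8 to 12 negative differences. Over all genes this gave 213 to 2793 calls with hemin after nilotinib and 9925 to 12504 with hemin alone. It gave 7103 to 9964 with nilotinib alone and 4862 to 6775 differences. Of the 20 members higher with hemin alone 13 held under every alternative that gave a value, of the 22 lower with nilotinib and hemin 18, and of the 12 negative differences 8. ATP6V1G2, CTSE, CTSV and CTSW gave no value under the filter of 10 counts in every library, and the differences none with 6 libraries alone.

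The replicate block gave 2 lower with hemin after nilotinib, and the 6 libraries alone with the block, chosen after earlier results were known, 5 higher and 3 lower (CTSE, CTSF and CTSH). Over all genes these settings called 1587 and 1600 in that comparison. In the other pairwise comparisons the samples share only a number (r from -0.00712 to 0.235). The block gained CTSF (-0.67, lower with hemin alone) and the negative difference of CTSK (-0.89) and lost that of CTSA.

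Depth limits CTSW and ATP6V1G2, and CTSE in the DMSO groups and CTSV in the nilotinib groups, where counts were few. P-values measure the spread between replicates of 1 cell line.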
